A study of Mus musculus with 28 samples.

Results

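MHC class II molecules display peptides from the endosomal pathway to CD4+ T cells. The genes described here are the 7 that build, chaperone and switch on this system in the mouse: the chains H2-Aa, H2-Ab1 and H2-Eb1, the invariant chain Cd74, the peptide exchange factor subunits H2-DMa and H2-DMb1, and the transactivator Ciita. They were chosen by name, and all 7 were found, among 35858 gene symbols in one set of files and 24845 in the other. Dendritic cells, B cells and macrophages carry most class II, and interferon gamma induces it in other cells through Ciita, which binds no DNA itself but docks on a complex of RFX, NF-Y and CREB factors at the X and Y boxes of the promoters.

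The study induced human APOBEC3B (A3B), a cytidine deaminase, in mice. In A3B mice a tetO-driven A3B-turboGFP cassette in ColA1 was switched on by the rtTA transactivator, which the CAG promoter drives in adult tissues, so the transgene was not limited to a cell type. All groups were labelled as given doxycycline pellets at 625 ppm, started, as the study states, in adult mice of 4 weeks. The label of control liver 11 gives both transgenes and that of control lung 87 the driver alone, and the other controls are labelled with the A3B transgene but no driver, apart from control pancreases 45 and 168. The analysis covered 28 samples in 2 sets, and mice are named by their numbers. The kallisto set held livers of 6 A3B and 2 control mice and pancreases of 6 A3B and 2 control mice, all labelled as 10 days on doxycycline, and 7 of these mice gave both tissues. A figure legend of the study describes the 2 control animals of its liver and pancreas editing calls as without doxycycline, whereas its methods state that control littermates received it. If these controls had none, genotype and doxycycline cannot be told apart in the kallisto set. The second set, a table of TPM (transcript levels scaled to length and depth), held livers of 3 A3B and 3 control mice and lungs of 3 A3B and 3 control mice. In that table A3B livers 23 and 28 are labelled 14 days, A3B liver 70 and the A3B lungs 10 days, and all controls 15 days, whereas the mouse table of the study gives other times for these controls. A3B mouse 70 and control mouse 91 each gave a liver and a lung. The genotype labels of A3B pancreases 44 and 137 and of control pancreases 45 and 168 read the other way round from their titles, and the group was taken from the title. The acinar cell markers, given with the pancreas results, split these samples by title. Each sample is a separate mouse within its tissue.

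The kallisto libraries held between 65161064 and 118976013 estimated counts. The TPM table gives no counts, so its depth is unknown. In the table the human A3B transcript lay between 705 and 1705 TPM in A3B livers and between 90.6 and 281 TPM in A3B lungs, against at most 0.144 TPM in control livers and 0.526 TPM in control lungs. Control pancreas 45 was almost without leukocyte transcripts, with 0.109 TPM of Ptprc (CD45, on all leukocytes), against 10.4 TPM in control 168 and 8.64 to 34.1 TPM in A3B pancreases. A3B liver 48 held little macrophage RNA, with a summed level of 28.3 TPM over the 9 macrophage markers, against 406 to 1176 TPM in the other A3B livers and 343 and 419 TPM in the controls. In bulk tissue, fewer class II positive cells and less class II RNA per cell cannot be told apart.

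Of the 7 genes 5 lie together in the H2 complex. On GRCm38 with GENCODE M21, H2-Aa spans chr17:34282744-34287823 on the minus strand, and H2-Ab1 (chr17:34257689-34269419), H2-Eb1 (chr17:34305867-34316674), H2-DMa (chr17:34119541-34139101) and H2-DMb1 (chr17:34153072-34160230) lie on the plus strand. RefSeq promoter windows of 300 bases (build GRCm38.p6) matched 4 of the 7 genes: H2-Aa, H2-Eb1, H2-DMa and H2-DMb1. The 100 bases around the Y box of H2-Aa, H2-Eb1 and H2-DMb1 are shown 5′ to 3′ because these genes varied together across mice. H2-DMa varied with them too but is not shown, for its windows held fewer matches, as given below. Capitals mark every match on either strand to CTGATTGG (the Y box with its flank), its core ATTGG, the X box motif, or TGATGATG, which was searched after the sequences were seen.
H2-Aa, chr17:34287842-34287941, minus strand: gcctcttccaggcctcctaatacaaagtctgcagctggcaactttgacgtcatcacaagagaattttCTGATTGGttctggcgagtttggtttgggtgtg
H2-Eb1, chr17:34305738-34305837, plus strand: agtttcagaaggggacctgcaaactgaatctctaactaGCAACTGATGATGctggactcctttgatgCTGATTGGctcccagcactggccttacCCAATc
H2-DMb1, chr17:34153060-34153159, plus strand: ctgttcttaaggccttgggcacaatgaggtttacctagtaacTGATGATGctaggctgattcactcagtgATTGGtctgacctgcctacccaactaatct

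The ATTGG core began 48 bases before the RefSeq start of the window in H2-Aa, 59 in H2-Eb1 and 61 in H2-DMb1. The RefSeq start of H2-DMb1 lies inside the GENCODE span given above, so its core does too, whereas for H2-Aa and H2-Eb1 both annotations give the same start. CTGATTGG was present in H2-Aa and H2-Eb1 and in 4.1% of all 32851 promoter windows, whereas the shorter core, which it contains, was in 37.4% of them. The X box motif was found in H2-Eb1 and in 0.861% of all windows. TGATGATG, which overlaps it in H2-Eb1, ended 19 bases upstream of the core in H2-Eb1 and 20 bases upstream in H2-DMb1, and was in 1.44% of all windows. The windows of H2-DMa held no CTGATTGG, X box motif or TGATGATG, and the core only at position -198 of a single window. The matches describe letters and say nothing of binding. Outside the H2 complex, Ciita spans chr16:10480059-10528418 and Cd74 chr18:60803848-60812652, both on the plus strand.

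Relative levels between genes are given on the TPM scale of the kallisto set, which accounts for transcript length. In the control livers Cd74 was the most abundant at 136 ± 68.5 TPM (mean ± SD, n = 2), followed by H2-Aa at 48.6 ± 26.2 TPM, H2-Ab1 at 43.6 ± 25.1 TPM and H2-Eb1 at 43.3 ± 24.9 TPM. H2-DMa stood at 6.66 ± 0.945 TPM, H2-DMb1 at 4.94 ± 2.12 TPM and Ciita at 0.534 ± 0.0351 TPM. The means of the 3 chains lay within the spread between mice, which genes of the same libraries share. Within controls 45 and 168 the ratio of H2-Ab1 to H2-Aa TPM was 0.859 and 0.912. That of H2-DMb1 to H2-DMa was 0.574 and 0.879, so for both pairs the order was the same in each control liver. Per mouse the ratio of H2-Aa to Cd74 TPM was 0.344 and 0.365 in the control livers and 0.264 to 0.654 in the A3B livers.

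**Figure D1:**
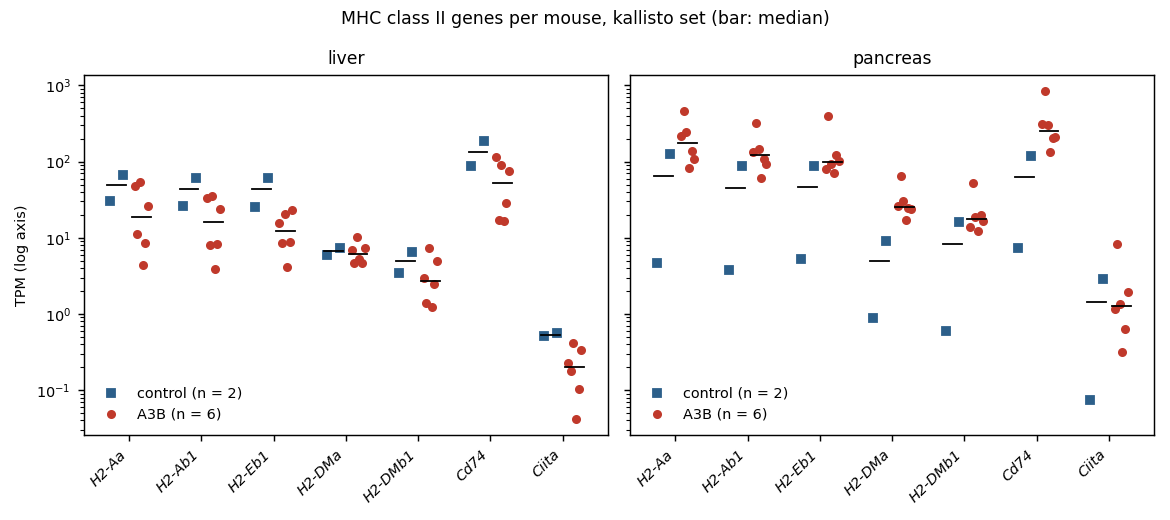
TPM of the 7 genes (log axis) in livers (left) and pancreases (right) of the kallisto set, 1 point per mouse, squares for 2 controls and circles for 6 A3B mice, bars at the median. In the liver H2-Eb1 and Ciita of the A3B mice lie under both controls, and in the pancreas control 45 lies under every A3B mouse for each gene.

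A3B livers of the kallisto set were compared with control livers to ask whether class II RNA differed after induction. The 3 chains, which form the peptide-binding heterodimers, had lower medians in A3B livers, with wide spread. H2-Eb1, the beta chain of I-E, was 25.7 and 60.9 TPM in controls 45 and 168 and ranged from 4.10 to 23.4 TPM in the A3B livers, with a median of 12.3 TPM. Every A3B liver lay under both controls. A3B livers 44 and 49 held 15.8 and 20.5 TPM of H2-Eb1 against 48.2 and 54.3 TPM of H2-Aa, whereas in both controls these genes lay closer together. Livers 44 and 49 also held the most H2-Ea-ps (I-E alpha) of the livers, at 0.154 and 0.856 TPM. Why H2-Eb1 was low beside H2-Aa in them was not tested. The log2 fold change of H2-Eb1 was -2.16 ± 0.52 (SE) with an adjusted p of 0.0527 (edgeR's quasi-likelihood test with Benjamini-Hochberg adjustment over all genes), just outside the threshold of 0.05. H2-Aa, the alpha chain of I-A, was 30.1 and 67.2 TPM in the controls and 4.43 to 54.3 TPM in the A3B livers, with a median of 18.6 TPM. H2-Ab1, its beta chain partner, was 25.8 and 61.3 TPM in the controls and 3.90 to 35.4 TPM in the A3B livers, with a median of 16.3 TPM. For both chains 4 of 6 A3B livers lay under both controls, and A3B livers 44 and 49 lay between them. The log2 fold changes were -1.47 ± 0.75 (edgeR adjusted p = 0.273) and -1.77 ± 0.69 (edgeR adjusted p = 0.167).

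Cd74, which plugs the groove and steers the complex to endosomes, was 87.3 and 184 TPM in the control livers and 16.8 to 115 TPM in the A3B livers, with a median of 52.6 TPM. 4 of 6 A3B livers lay under both controls, and the log2 fold change was -1.79 ± 0.62 (edgeR adjusted p = 0.128). Ciita was 0.51 and 0.559 TPM in the controls and 0.0423 to 0.418 TPM in the A3B livers, without overlap. At this low level its log2 fold change of -1.63 ± 0.68 did not pass (edgeR adjusted p = 0.188). H2-DMa and H2-DMb1 form H2-DM, which exchanges the CLIP remnant of Cd74 for antigen peptides. H2-DMa was 5.99 and 7.33 TPM in the controls and 4.62 to 10.4 TPM in the A3B livers, so the groups overlapped on both sides, and H2-DMb1 was 3.44 and 6.44 TPM against 1.24 to 7.41 TPM. Their log2 fold changes were -0.40 ± 0.41 (edgeR adjusted p = 0.592) and -0.84 ± 0.66 (edgeR adjusted p = 0.475).

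In all, 0 of 7 genes passed in the liver of the kallisto set, where 2.41% of 17365 genes were called lower. An unadjusted p under 0.05 was reached by 4 of the 7 and, in either direction, by 3985 of all genes tested. H2-Eb1 and Ciita, 2 of 7, had every A3B liver under both controls, which held for 5.42% of all genes tested. The median log2 fold change of the 7 was -1.63, against 0.21 over all genes. DESeq2, which called 1096 genes lower, called H2-Eb1 (adjusted p = 0.00486) and Cd74 (adjusted p = 0.0499), and edgeR called H2-Eb1 without A3B liver 49 (adjusted p = 0.031) or without A3B liver 153 (adjusted p = 0.047), while over all samples left out in turn its adjusted p reached 0.511.

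In livers of the TPM table the A3B mice fell into unlike values. Cd74 was 238, 243 and 223 TPM in controls 11, 91 and 92, and 13.6, 14.3 and 175 TPM in A3B mice 23, 28 and 70. Mice 23 and 28 thus held 5.79% and 6.11% of the control mean and mouse 70 held 74.4%. H2-Aa was 173, 155 and 134 TPM in the controls and 7.24, 8.73 and 123 TPM in the A3B mice. H2-Ab1 was 120, 109 and 97.8 TPM in the controls and 5.49, 6.54 and 76.3 TPM in the A3B mice. H2-Eb1 was 29.5, 29.7 and 25.6 TPM in the controls and 0.53, 1.47 and 20.6 TPM in the A3B mice. In each of these 4 genes every A3B liver lay under every control, and mouse 70 lay close under them. Since mice 23 and 28 are labelled 14 days and mouse 70 is labelled 10 days, the time on doxycycline and the mouse cannot be told apart, and the labelled time of the controls differs from both.

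Ciita was 4.85, 1.05 and 1.16 TPM in the control livers of the table and 0.0533, 0.302 and 0.82 TPM in A3B mice 23, 28 and 70, again without overlap, and the high control was mouse 11. H2-DMb1 was 6.90, 8.69 and 5.56 TPM in the controls and 0.926, 1.76 and 5.75 TPM in the A3B mice, where mouse 70 overlapped the controls. H2-DMa stood apart from the rest, with 5.28, 6.16 and 5.46 TPM in the controls and 13.3, 4.34 and 5.35 TPM in the A3B mice. In mouse 23 it was thus the only 1 of the 7 genes above the controls.

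The log2 fold changes on the log2(TPM + 1) scale, which understates changes of low genes, were -2.84 ± 0.97 for H2-Aa, -2.81 ± 0.89 for H2-Ab1, -2.75 ± 0.90 for H2-Eb1 and -2.79 ± 0.90 for Cd74 (limma, adjusted p = 0.0829 to 0.0957). They were -1.27 ± 0.48 for H2-DMb1 (limma adjusted p = 0.121), -1.13 ± 0.48 for Ciita (limma adjusted p = 0.151) and 0.25 ± 0.41 for H2-DMa (limma adjusted p = 0.697). So 0 of 7 passed, where 1.86% of 11507 genes were called lower. An unadjusted p under 0.05 was reached by 6 of the 7 and, in either direction, by 3755 of all genes tested. For 5 of the 7, all but H2-DMa and H2-DMb1, every A3B liver lay under every control, which held for 10.3% of all genes tested. Without A3B liver 70, 5 genes passed, where 511 of 11436 genes were called lower, with log2 fold changes of -4.10 for H2-Aa, -3.97 for H2-Ab1, -3.91 for H2-Eb1, -3.98 for Cd74 and -1.79 for H2-DMb1. That fit takes the spread of 2 A3B mice with that of 3 controls.

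Some markers of resident macrophages were also low in A3B livers 23 and 28, but of the 6 Kupffer cell markers 0 were called lower. The 1 that was called, the scavenger receptor Marco, rose, from 0.9 to 1.32 TPM in controls to 3.31 to 7.1 TPM in A3B livers (log2 fold change 1.58 ± 0.32, limma adjusted p = 0.0385). Clec4f, a lectin of Kupffer cells, was 135, 174 and 162 TPM in the controls and 33.9, 31.7 and 239 TPM in A3B livers 23, 28 and 70. Adgre1 (F4/80) was 25.2, 11.4 and 10 TPM in the controls and 1.84, 1.86 and 28.8 TPM in the A3B livers. The summed level of the 6 Kupffer cell markers was 95.1, 129 and 571 TPM in the A3B livers and 369 to 425 TPM in controls. The 8 B cell markers summed to 2.89, 4.07 and 14 TPM in the A3B livers against 8.21 to 24.3 TPM in controls. Ptprc did not follow, with 15.1, 28.3 and 85.4 TPM in the A3B livers and 50.2, 24.1 and 12.2 TPM in the controls, and the 9 macrophage markers overlapped in sum, at 420 to 1033 TPM against 611 to 858 TPM. The 7 hepatocyte markers summed to 2490 to 5746 TPM in A3B livers and 6820 to 8133 TPM in controls of the table, where 1 of 7 was called lower. In the kallisto livers they summed to 31914 to 83719 TPM against 86813 and 143909 TPM, with 0 of 7 called, so in both sets every A3B liver lay under every control. In the kallisto livers Clec4f was 95.6 and 91.6 TPM in controls 45 and 168, and 158, 243 and 174 TPM in A3B livers 44, 49 and 153 against 14.9 to 85 TPM in the other 3. The part of these cells in the class II values was not tested.

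**Figure D2:**
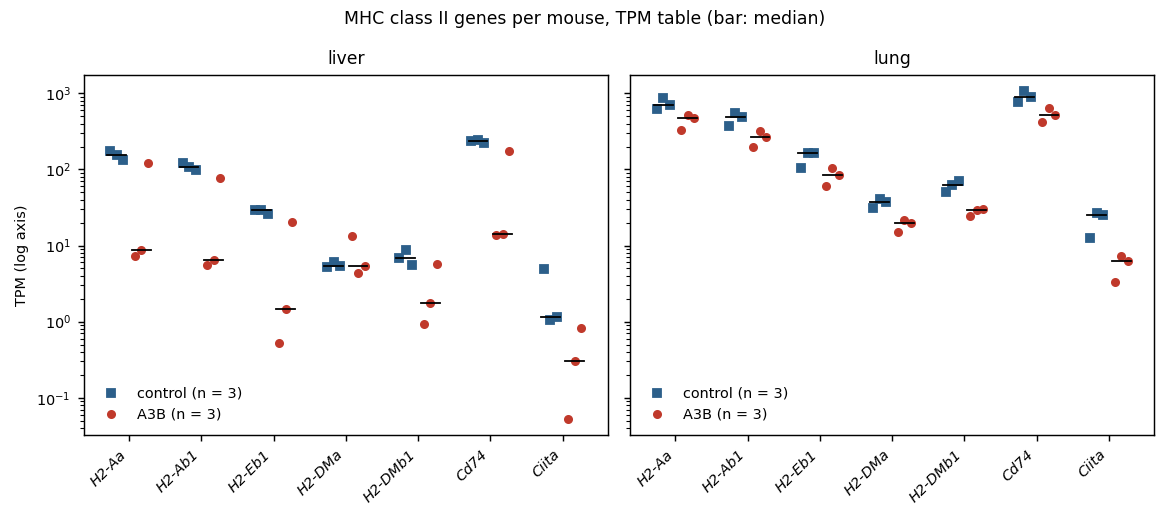
TPM of the 7 genes (log axis) in livers (left) and lungs (right) of the TPM table, 1 point per mouse, squares for 3 controls and circles for 3 A3B mice, bars at the median. In the liver the chains and Cd74 of 2 A3B mice lie far under the controls while mouse 70 lies close to them, and in the lung all A3B mice lie under all controls for every gene.

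In the lung, which held more class II RNA than the liver of the same table, all 7 genes fell in A3B mice. The A3B lungs are labelled 10 days on doxycycline and the control lungs 15 days, so genotype and labelled time cannot be told apart here. Cd74 was 761, 1075 and 906 TPM in control lungs 87, 88 and 91 and 426, 641 and 516 TPM in A3B lungs 69, 70 and 74. H2-Aa was 615, 867 and 703 TPM in the controls and 329, 515 and 472 TPM in the A3B lungs. H2-Ab1 was 367, 552 and 488 TPM in the controls and 200, 323 and 265 TPM in the A3B lungs. A3B lung 69 was the lowest for each, and no A3B lung reached a control. H2-Eb1 was 105, 164 and 166 TPM in the controls and 60, 103 and 85.3 TPM in the A3B lungs, with A3B lung 70 just under control 87. The subunits of H2-DM followed: H2-DMa was 30.8, 41.3 and 36.9 TPM in the controls and 15.1, 21.8 and 19.7 TPM in the A3B lungs, and H2-DMb1 was 49.9, 63.1 and 70.8 TPM against 24.8, 29.7 and 29.8 TPM. Ciita, the transactivator of all of them, was 12.4, 26.7 and 25 TPM in the controls and 3.29, 7.25 and 6.3 TPM in the A3B lungs.

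Ciita had the steepest fitted change, with a log2 fold change of -1.74 ± 0.36 (limma adjusted p = 0.0148), and its A3B lungs held 15.4%, 33.9% and 29.5% of the control mean. H2-DMb1 fell by 1.09 ± 0.15 on the log2 scale (limma adjusted p = 0.00486) and H2-DMa by 0.92 ± 0.17 (limma adjusted p = 0.00878). H2-Ab1 fell by 0.84 ± 0.22 (limma adjusted p = 0.0256), H2-Eb1 by 0.81 ± 0.25 (limma adjusted p = 0.0472), Cd74 by 0.80 ± 0.19 (limma adjusted p = 0.0188) and H2-Aa by 0.74 ± 0.20 (limma adjusted p = 0.03). These 6 genes were thus 1.67-fold to 2.12-fold lower on that scale. So 7 of 7 were called lower, where 20.8% of 13651 genes were, and the A3B and control lungs did not overlap for 7 of 7, which held in this direction for 30.6% of the genes tested. The median log2 fold change of the 7 was -0.84, against -0.06 over all genes. With a spread from 3 mice a group, calls rested on single lungs: 3 genes passed without A3B lung 69, 3 without A3B lung 74, 4 without control lung 88 and 2 without control lung 91, with the sign kept throughout. Genes called lower over the whole table also became fewer in these 4 fits, at 1546, 2368, 2450 and 1820 in that order against 2838 with all lungs. H2-DMa and H2-DMb1 passed in every one of the 6 fits that left out a lung (highest adjusted p 0.0346 and 0.0185, limma).

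**Figure D3:**
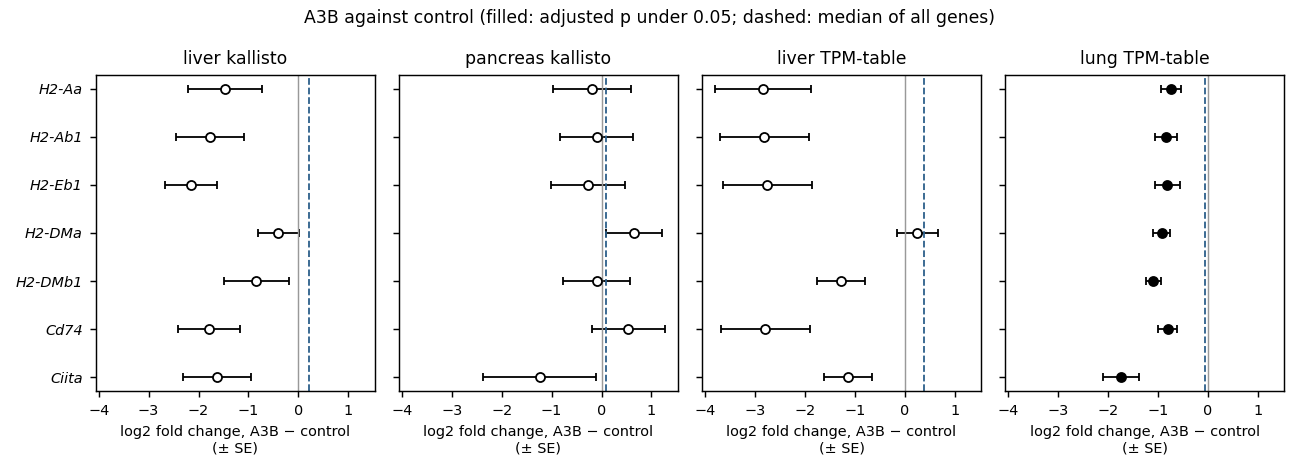
Log2 fold change of A3B against control (x axis, ± SE) for each gene in the 4 comparisons, filled where the adjusted p was under 0.05, with a dashed line at the median of all genes tested. The lung values sit between -1.74 and -0.74 with short error bars and are filled, the liver values of the TPM table reach -2.84 with long error bars, and the pancreas values straddle 0.

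Ptprc overlapped between the groups in the lung, at 394 to 703 TPM in A3B mice and 469 to 693 TPM in controls, with a log2 fold change of -0.09 ± 0.24 (limma adjusted p = 0.791). Of 5 leukocyte markers tested 1 was called lower, as was 1 of 7 T cell markers. Over all genes of the lung 20.8% were called lower and 2191 of 13651 higher, and the leukocyte and T cell shares lie under the former. Of the leukocyte markers 4 of 5 were negative, with a median of -0.12. Of the T cell markers 6 of 7 were negative, with a median of -0.60 against -0.06 over all genes. The 8 T cell markers of the list summed to 125 to 167 TPM in A3B lungs and 166 to 309 TPM in controls. The 8 B cell markers summed to 99.7 to 180 TPM in A3B lungs and 148 to 553 TPM in controls. Of 7 B cell markers tested, 1 passed, Fcer2a (CD23), at -2.61 ± 0.70 (limma adjusted p = 0.036). Of 9 dendritic cell markers tested, Batf3, a factor of cross-presenting dendritic cells, fell by 1.31 ± 0.21 (limma adjusted p = 0.00624) and Cst3 by 0.63 ± 0.10 (limma adjusted p = 0.00651), while Zbtb46 rose by 0.46 ± 0.10 (limma adjusted p = 0.0136). In all 7 of the 9 were negative, with a median of -0.43 against -0.06 over all genes, and the 10 markers of the list summed to 876 to 1002 TPM in A3B lungs and 1311 to 1500 TPM in controls, without overlap. Of 9 macrophage markers, Lyz2 fell by 0.51 ± 0.09 (limma adjusted p = 0.00729) and Mrc1 rose by 0.82 ± 0.22 (limma adjusted p = 0.03), and their sum was 1154 to 1410 TPM in A3B lungs and 1424 to 1526 TPM in controls. The 6 endothelial cell markers summed to 621 to 844 TPM against 852 to 939 TPM, and 2 of 5 tested were called lower. The part of these cell types in the class II values was not tested.

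In the pancreas the direction depended on which of the 2 controls and which scaling was used. H2-Aa was 4.67 TPM in control 45 and 125 TPM in control 168, and ranged from 82.9 to 460 TPM in A3B pancreases with a median of 175 TPM. Cd74 was 7.33 and 119 TPM in the controls and 132 to 848 TPM in A3B pancreases, with a median of 256 TPM. Every A3B pancreas was thus above both controls for Cd74, and 4 of 6 were for H2-Aa. H2-Ab1 was 3.74 and 87.6 TPM in the controls and 60.1 to 325 TPM in the A3B pancreases, and H2-Eb1 was 5.26 and 88.1 TPM against 70.6 to 402 TPM. H2-DMa was 0.876 and 9.01 TPM in the controls and 17.2 to 64.2 TPM in the A3B pancreases, with no overlap, while H2-DMb1 at 0.589 and 15.9 TPM against 12.4 to 52.5 TPM did overlap. Ciita was 0.0749 and 2.84 TPM in the controls and 0.315 to 8.19 TPM in the A3B pancreases, of which 5 lay between the controls. A3B pancreas 49 was the highest for each of the 7 genes and A3B pancreas 125 the lowest.

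The scale also mattered in the pancreas, since 62.2% and 59.5% of the counts of controls 45 and 168 fell on their 10 leading genes, against 12% to 20.4% in A3B pancreases. After TMM scaling, which sets the bulk of genes level, the log2 fold changes were -0.19 ± 0.79 for H2-Aa, -0.10 ± 0.74 for H2-Ab1, -0.27 ± 0.74 for H2-Eb1, 0.65 ± 0.56 for H2-DMa, -0.10 ± 0.68 for H2-DMb1, 0.54 ± 0.74 for Cd74 and -1.24 ± 1.13 for Ciita (edgeR adjusted p = 0.395 to 0.929). So 0 of 7 passed, where 31.9% of 19123 genes were called in either direction, and DESeq2 also called 0. An unadjusted p under 0.05 was reached by 0 of the 7 and by 8310 of all genes tested. H2-DMa and Cd74, 2 of 7, had every A3B pancreas above both controls in TPM, which held for 70.8% of all genes tested. With counts scaled by their totals the median of all genes moved from 0.09 to 2.29, and the 7 genes lay between 0.68 and 2.60, of which H2-DMa passed (edgeR adjusted p = 0.0188) in a fit that called 13473 of 19123 genes higher. On log2(TPM + 1) H2-Ab1, H2-DMa and Cd74 passed, at 2.62, 2.76 and 3.14 (limma), where 11401 of 13590 genes were called higher. Without control 168, H2-Aa, H2-Ab1, H2-DMa and H2-DMb1 passed at 2.22 to 2.48 (edgeR), where 3103 of 19961 genes were called higher, whereas without control 45 all 7 values were between -2.13 and -0.04 and 0 passed. Each of these 2 fits sets 6 A3B mice against 1 control, assumed to vary as they do.

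**Figure D4:**
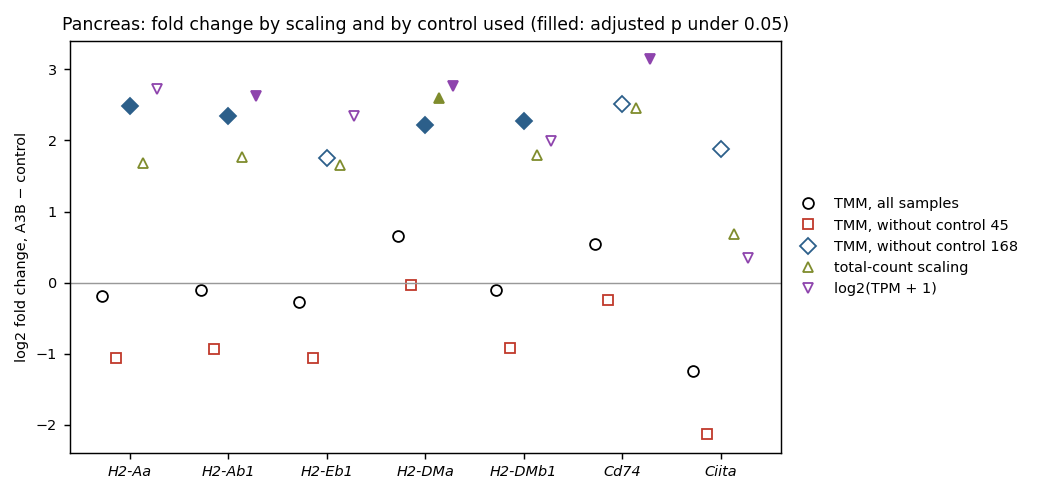
Log2 fold change of A3B against control pancreas (y axis) of the 7 genes under 5 settings, filled where the adjusted p was under 0.05. Values lie around 0 after TMM scaling of all samples, at or under 0 without control 45, and above 0 without control 168, with total-count scaling or on log2(TPM + 1).

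Lymphoid and macrophage markers differed between these pancreases. The 8 B cell markers summed to 0.84 TPM in control 45 and 91.2 TPM in control 168, and to 112 TPM in A3B pancreas 49 against 4.28 to 44.4 TPM in the other A3B pancreases. The 8 T cell markers summed to 0.471 and 44.9 TPM in the controls and 13.8 to 143 TPM in A3B pancreases, with 0 of 8 called. Macrophage markers were higher in all A3B pancreases, at 2223 to 6409 TPM in sum against 51.8 and 573 TPM in the controls, and 8 of 9 rose, where 3251 of 19123 genes did, Cd68 by 4.02 ± 0.42 (edgeR adjusted p = 0.000208) and C1qa by 3.48 ± 0.46 (edgeR adjusted p = 0.000522) on the log2 scale. B cell markers had 0 of 8 called and a median of -2.03 with TMM scaling, and 0 of 8 and -0.12 with total-count scaling. Markers of acinar cells, which make the digestive enzymes, summed to 221599 and 237364 TPM in the controls and 62564 to 169166 TPM in A3B pancreases, and 6 of 7 fell, where 2843 of 19123 genes did, whereas with total-count scaling 4 of 7 were called lower and 1 higher, where 210 of 19123 genes were called lower. The part of these cells in the class II values was not tested.

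Differences between tissues in the A3B effect were tested as an interaction. For pancreas against liver the difference of log2 fold changes was above 0 for all 7 genes, from 0.55 ± 1.41 for Ciita to 2.51 ± 1.09 for Cd74. Of the 7, 0 passed (edgeR adjusted p = 0.144 to 0.843), where 11.9% of 19908 genes were called, and DESeq2 also called 0 of the 7. An unadjusted p under 0.05 was reached by 1 of the 7 and by 5743 of all genes tested. With the mouse as a replicate block, in the 7 mice that gave both tissues, H2-Eb1 at 2.50 ± 0.60 (edgeR adjusted p = 0.0372) and Cd74 at 2.80 ± 0.58 (edgeR adjusted p = 0.025) passed, so 2 of 7 in a fit that also left out A3B liver 48 and A3B pancreas 53, where 1072 of 19611 genes were called higher. Total-count scaling called 3, Cd74, H2-Eb1 and H2-DMa, in a fit that called 7847 of 19908 genes higher and moved the median of all genes from 0.03 to 1.59. Leaving out control pancreas 168 called the same 3 genes, where 1034 of 20828 were called higher. For lung against liver in the TPM table the difference was 1.95 to 2.10 for the 3 chains and Cd74 (limma adjusted p = 0.229 to 0.244), with the liver the lower, and -1.16 ± 0.46 for H2-DMa (limma adjusted p = 0.12). 0 of 7 passed, where 10.7% of 13477 genes were called, and 1 had an unadjusted p under 0.05, as had 4026 of all genes tested. Without A3B liver 70, these 4 passed at 3.10 to 3.36, where 772 of 13526 genes were called higher. Without A3B liver 28 H2-DMa passed at -1.44 (limma adjusted p = 0.0445), where 1573 of 13470 genes were called lower.

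Mice that gave several tissues can be followed by their numbers. Among the 5 A3B mice with liver and pancreas, mouse 49 was the highest for H2-Aa in both (54.3 and 460 TPM) and mouse 125 the lowest in both (4.43 and 82.9 TPM). In the pancreas these 2 mice held those places for all 7 genes, but in the liver mouse 44 was the highest for Cd74, mouse 153 for H2-Eb1, and mouse 137 the lowest for H2-DMa. In mouse 49 H2-Eb1 was 20.5 TPM in the liver, far under H2-Aa, but 402 TPM in the pancreas, near H2-Aa. Its H2-Ea-ps was 0.856 TPM in the liver and 0.0871 TPM in the pancreas. The deviations of its tissues correlated at -0.05, the lowest of these mice. Whether both tissues came from 1 animal was not tested. Mouse 70, whose liver kept 74.4% of the control mean of Cd74, kept 70.1% in the lung. The 7 genes varied together over the 16 kallisto samples once the mean of each group and tissue was taken off, with Pearson correlations between pairs of genes of log2 CPM from 0.80 to 0.99. Among the genes most like their mean, out of 13571 with a mean of at least 1 TPM, were Gvin1 (r = 0.97), Ccl5 (0.94), Cd4 (0.94), Gm4070 (0.93), Gbp2b (0.93), Cxcl9 (0.93) and Ptpn7 (0.92). Ptprc reached 0.85, Itgax (CD11c, of dendritic cells) 0.81, Cd79b (of B cells) 0.81, Irf1 0.60 and Adgre1 0.52. Without the 2 control pancreases, over the other 14 samples, the pairs ran from 0.69 to 0.98, Gvin1 was at 0.95, Itgax at 0.87, Ptprc at 0.75, Cd79b at 0.70, Adgre1 at 0.54 and Irf1 at 0.39, an alternative chosen after seeing the data. These points share livers and pancreases of the same mice, and the correlations are a description.

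To set class II RNA against leukocyte RNA, the ratio of Cd74 to Ptprc TPM was taken in each mouse. In livers of the kallisto set it was 24.3 and 100 in controls 45 and 168 and 11 to 26.4 in A3B mice, with 4 of 6 A3B livers under both controls. In the pancreas the controls enclosed the A3B mice, at 67.1 and 11.5 against 15.3 to 28.7. In livers of the TPM table it was 4.74, 10.1 and 18.3 in controls 11, 91 and 92 and 0.899, 0.508 and 2.04 in A3B mice 23, 28 and 70. In the lung it was 1.62, 1.84 and 1.31 in controls 87, 88 and 91 and 1.08, 1.13 and 0.734 in A3B mice 69, 70 and 74. In both tissues of the table every A3B mouse lay under every control. The differences of the mean log2 ratio were -1.48 and -0.34 in liver and pancreas of the kallisto set and -3.29 and -0.71 in liver and lung of the table. Two-sided exact permutation tests gave p = 0.107, 0.607, 0.1 and 0.1 in that order, or 0.143, 0.607, 0.143 and 0.143 adjusted over the 4 comparisons. The smallest p that 3 mice against 3 allow is 0.1, and 6 against 2 allow 0.0357. The size of the difference depended on the reference gene. With Adgre1 in place of Ptprc, the log2 difference was -0.15 in livers and -2.38 in pancreases of the kallisto set (exact permutation p = 0.929 and 0.0357, the latter the smallest possible). In the table it was -1.23 in livers and -1.48 in lungs (exact permutation p = 0.1 for each, again the smallest possible).

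**Figure D5:**
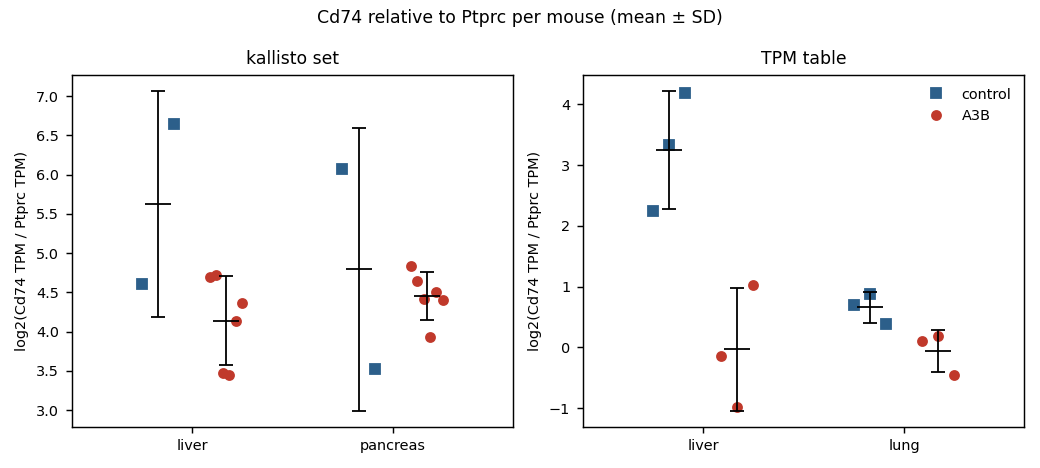
Log2 of the ratio of Cd74 to Ptprc TPM per mouse (y axis) by tissue in the kallisto set (left) and the TPM table (right), squares for controls and circles for A3B mice, with mean ± SD. In the table all A3B mice lie under all controls in the liver and in the lung, and in the kallisto set the groups overlap.

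The kallisto files resolve transcripts. Cd74 RNA was mainly Cd74-201, with Cd74-202 second. Cd74-201 made up 74.1% and 71.1% of Cd74 TPM in control livers 45 and 168 and 80.3% to 91.3% in A3B livers, and 77.2% and 78.5% in the control pancreases and 83.7% to 87.1% in A3B pancreases. All 6 A3B mice lay above both controls in each tissue, whatever their Cd74 level. Cd74-202 was 25.3% and 28.7% in control livers and 8.7% to 19.3% in A3B livers. In the pancreas it overlapped, at 22.8% and 15.8% in controls 45 and 168 and 12.1% to 16.1% in A3B mice. Control pancreas 168 also held 5% of Cd74-205, a transcript with a retained intron, against 0.162% to 1.45% in A3B pancreases. For Cd74-201 the difference of means was 11.5 percentage points in the liver and 7.7 in the pancreas, each with p = 0.0357 by a two-sided exact permutation test, the smallest it can give, and 0.0714 adjusted over 4 shares. The transcripts of Ciita start in 3 places, near positions 10480059, 10488279 and 10489746, and the known promoters of this gene serve different cell types. The middle start led, with 66.2% and 66.9% of Ciita TPM in control livers and 75% to 100% in A3B livers, a difference of 19 percentage points (two-sided exact permutation p = 0.0714, adjusted p = 0.0952). In the pancreas it was 77.8% and 73.2% against 49.4% to 86.4% (exact permutation p = 0.536). Ciita lay under 1 TPM in every liver of the kallisto set, and its transcripts share most of their sequence, so these shares rest on few distinguishing reads.

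Other class II genes were read beside the 7. H2-DMb2, the second H2-DM beta gene and a close copy of H2-DMb1 with which reads may be exchanged, was 43.8 ± 18.2 TPM (SD, n = 3) in control lungs and 19.3 ± 6.67 TPM in A3B lungs, at a log2 fold change of -1.11 ± 0.38 (limma adjusted p = 0.0619). H2-Ob, the beta chain of the H2-DM inhibitor H2-O, was 48.9 ± 33.5 TPM and 15.5 ± 6.97 TPM there, at -1.46 ± 0.62 (limma adjusted p = 0.118), and in the kallisto pancreases it was 0.16 and 24.8 TPM in the controls against 0.412 to 20.6 TPM. H2-Oa, its alpha partner, is listed at 0 in all samples of the table and was at 0.307 to 0.354 TPM in control and 0.0847 to 0.779 TPM in A3B livers of the kallisto set. H2-Ea-ps, the I-E alpha gene that some strains lack in working form, was 43.3 ± 19.3 TPM in control lungs and 18.2 ± 6.81 TPM in A3B lungs, at -1.18 ± 0.39 (limma adjusted p = 0.0566). In the kallisto set it was listed at 0 in all 4 control samples, at 0.0154 to 2.54 TPM in the 6 A3B pancreases, and in A3B livers at 0.154 TPM in mouse 44, 0.856 TPM in mouse 49, 0.018 TPM in mouse 137 and 0 in the other 3.

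Regulators of the 7 genes were read from the lists. Of the 7 subunits of RFX, NF-Y and CREB at the X and Y boxes, 0 passed in either liver set. Rfxank alone passed in the lung, at 18.6 to 20.8 TPM in A3B mice against 26.5 to 29.3 TPM in controls and a log2 fold change of -0.49 ± 0.09 (limma adjusted p = 0.00928). That is 1 of 7 subunits, where 2838 of 13651 genes of the lung were called lower. Rfxank was also called in the pancreas, at -0.72 ± 0.20 after TMM scaling (edgeR adjusted p = 0.0212), where 2843 of 19123 genes were called lower. With total-count scaling Rfxank was instead called higher, at 1.49 (edgeR adjusted p = 0.00255), as were all 7 subunits, and lay under the median of all genes of 2.29. Of the interferon gamma axis, 7 genes were tested in the lung: the receptor chain Ifngr1 rose by 0.52 ± 0.08 (limma adjusted p = 0.00598), Ifngr2 fell by 0.72 ± 0.15 (limma adjusted p = 0.0136) and Jak1 rose by 0.34 ± 0.09 (limma adjusted p = 0.0282). Over all 13651 genes of the lung 2191 were called higher and 2838 lower. Irf1, a target of this signal, was 10 to 11.4 TPM in A3B lungs and 11.6 to 16.4 TPM in controls. In the pancreas 3 of 8 were called higher, where 3251 of 19123 genes were, and 7 of 8 with total-count scaling, where 13473 were. In the livers 0 of 7 were called in each set.

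Genes that cut peptides or give the costimulatory signal came last. Of 9 endosomal processing genes tested in the pancreas 6 rose, where 3251 of 19123 genes were called higher, with the protease Lgmn at 1.33 and 9.53 TPM in controls and 191 to 401 TPM in A3B mice (log2 fold change 3.93 ± 0.53, edgeR adjusted p = 0.00061). With total-count scaling all 9 were called higher, as were 13473 of 19123 genes. In livers of the kallisto set 2 of 9 fell, where 418 of 17365 genes were called lower. These were Lamp1 at -1.57 ± 0.32 (edgeR adjusted p = 0.0306) and Lamp2 at -1.29 ± 0.29 (edgeR adjusted p = 0.0447), both membrane proteins of lysosomes, and neither passed with total-count scaling. In the lung 0 of 10 passed. March8 (now Marchf8), a ubiquitin ligase that acts on membrane proteins, was lower in A3B livers of the kallisto set at -1.42 ± 0.24 (edgeR adjusted p = 0.0161). Among 6 costimulatory genes in the lung, Cd80 rose by 0.75 ± 0.15 (limma adjusted p = 0.0116) and Cd40 fell by 0.61 ± 0.15 (limma adjusted p = 0.0219), and 0 passed in either liver set. In the lung 2191 of 13651 genes were called higher and 2838 lower. In the pancreas 0 of 6 passed with TMM scaling, and 2 of 6 were called higher with total-count scaling, as were 13473 of 19123 genes.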

How the data were processed

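RNA was sequenced from mouse liver, pancreas and lung. For 16 samples the authors deposited estimated counts and TPM per transcript from kallisto 0.46.1 against mm10. For 12 samples they deposited TPM per gene, from read counts over STAR 2.7.1a alignments by GenomicAlignments and GenomicFeatures. Depth of the TPM table is unknown, which leaves precision to the replicates. Here 116640 of 119414 transcripts were matched to GENCODE M21 gene symbols, summed for each gene and rounded to whole numbers. The unmatched held 0.23% to 1.47% of counts. Left out were 4 rows of the gene file that share 2 names, and 26 of its names read as dates.

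Estimated counts were tested with edgeR 4.0.16 (filterByExpr, TMM, robust quasi-likelihood) and the table with limma 3.58.1 (trend, robust) on log2(TPM + 1), keeping genes whose mean reached 1 TPM, in R 4.3.3. Benjamini-Hochberg adjustment ran over all genes tested, with a threshold of 0.05. Both tissue contrasts were interaction terms. Liver and pancreas came from the same numbered mice, and their deviations from group means correlated at -0.05 to 0.37, so the mouse was a block in an alternative fit, which dropped A3B liver 48 and A3B pancreas 53. P-values measure the spread between these mice only. Fits were tested on simulated data with 200 genes changed 4-fold. The spread was assumed (for edgeR a dispersion of 0.25) and not that of the 7 genes, so the tools cannot be compared. For the kallisto set edgeR recovered 26.5% of them in liver, 23.5% in pancreas and 0.5% for pancreas against liver. For the TPM table limma recovered 93.5% in liver, 93% in lung and 41% for lung against liver. Alternatives were DESeq2 1.42.0, total-count scaling, other filters and pseudocounts, and leaving out each sample.

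The 7 genes, gene lists and tests were chosen with earlier results of these data known. Named beside the 7 were up to 4 genes of each list with the smallest p among those called, the 2 smallest where none was, and 4 class II genes and Ptprc in any case; other markers were chosen after their values were seen. Some genes that these rules name are not reported here.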

Additional observations from a re-analysis of the deposited data

Results flagged for a closer look

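Among the 6 A3B pancreases, mouse 49 lay far above the others for H2-Eb1, at 402 TPM, and for H2-DMb1, at 52.5 TPM (Dixon's test on log2(TPM + 1), 16 groups tested, of which chance alone flags about 1 in 20). The same pancreas had the highest B cell marker sum of the A3B pancreases, at 112 TPM. It also had the highest Ptprc, at 34.1 TPM against 8.64 to 14.2 TPM in the others. Cd3g of T cells was 17.1 TPM against 0.858 to 2.92 TPM. The part of these cells in the class II values was not tested. The A3B effect differed between pancreas and liver with the mouse as a replicate block, by 2.50 on the log2 scale for H2-Eb1 and 2.80 for Cd74. That fit also left out A3B liver 48 and A3B pancreas 53, so the block and the samples left out cannot be told apart. Neither gene passed with TMM scaling of all samples and no block.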

How the results depend on the processing

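In livers of the kallisto set, 0 of 7 genes passed, 2 with DESeq2, 1 with no low-count filter and 0 to 1 with a sample left out. With a sample left out H2-Aa ran from -2.10 to -0.68, H2-Ab1 from -2.43 to -0.91, H2-Eb1 from -2.81 to -1.31, Cd74 from -2.40 to -1.05, H2-DMb1 from -1.34 to -0.35, H2-DMa from -0.75 to -0.17 and Ciita from -1.97 to -1.50. H2-DMa turned to 0.09 with total-count scaling. In the pancreas 1 passed with total-count scaling, where H2-Aa, H2-Ab1, H2-Eb1, H2-DMb1 and Ciita turned to 1.68, 1.77, 1.65, 1.79 and 0.68, and 3 with limma on log2(TPM + 1), where they turned to 2.73, 2.62, 2.34, 1.99 and 0.35. With a sample left out 0 to 4 passed, and the pancreas values ran from -1.06 to 2.48 for H2-Aa, -0.94 to 2.35 for H2-Ab1, -1.06 to 1.76 for H2-Eb1, -0.04 to 2.22 for H2-DMa, -0.92 to 2.27 for H2-DMb1, -0.24 to 2.51 for Cd74 and -2.13 to 1.88 for Ciita. For pancreas against liver, 2 passed with the mouse as a replicate block, 3 with total-count scaling and 0 to 3 with a sample left out, where H2-Aa ran from 0.58 to 4.16, H2-Ab1 from 0.90 to 4.33, H2-Eb1 from 1.13 to 4.12, H2-DMa from 0.51 to 2.82, H2-DMb1 from 0.06 to 3.31, Cd74 from 1.69 to 4.52 and Ciita from -0.35 to 3.71. With a sample left out, livers of the TPM set had 0 to 5 that passed, where H2-DMa ran from -0.19 to 0.52, and lungs had 2 to 7. In the lung H2-Aa (adjusted p = 0.0551) and H2-Eb1 (adjusted p = 0.0808) did not pass in limma with no filter on low values. For lung against liver 0 to 4 passed with a sample left out, where H2-DMb1 ran from -0.21 to 0.70, the replicate block over mice 70 and 91 turned H2-DMb1 to -0.07, and a pseudocount of 0.1 turned Ciita to 0.42. The block changed no other call.

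The log2 difference in the ratio of Cd74 to Ptprc, with a sample left out, ran from -2.50 to -0.46 in livers and -1.61 to 0.93 in pancreases of the kallisto set, and from -3.82 to -2.82 in livers and -0.84 to -0.51 in lungs of the TPM set. With Adgre1 as reference these 4 differences were -0.15, -2.38, -1.23 and -1.48. The share of the middle Ciita start in the liver differed by 16.2 percentage points in estimated counts (exact permutation p = 0.0357) and by 16.2 to 21.2 with a sample left out. The Cd74-201 difference was 9.99 to 13 in the liver and 7.01 to 8.38 in the pancreas with a sample left out, where 6 mice against 1 cannot reach 0.05. The causes were not tested. Ciita could not be fitted in livers of the kallisto set with limma on log2(TPM + 1), being under the filter. The low number of controls limits every comparison, and the unknown depth limits those of the TPM set.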
